A study of Homo sapiens with 4 samples.

Results

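The non-clustered protocadherins described here are the 10 genes PCDH1, PCDH7, PCDH8, PCDH9, PCDH10, PCDH12, PCDH17, PCDH18, PCDH19 and PCDH20. They were measured by 17 of the 41000 probes of the array, those whose transcript accession belongs to 1 of the 10 genes, out of 17240 genes that could be named in this way. Of these genes, 5 had 1 probe each, and the probes of the other 5 were kept apart. The genes were selected on their ratios of knockdown over control, which were known when the group was put together, so those ratios are given as a description, without a test.

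Protocadherins are single-pass membrane proteins of the cadherin superfamily whose extracellular cadherin repeats bind calcium and mediate contact between cells that carry the same protein. The clustered protocadherins lie in tandem gene arrays, and part of them share cytoplasmic exons. The non-clustered members are separate genes with cytoplasmic tails of their own. They are best known from the developing nervous system, where they act in cell sorting, axon outgrowth and synapse formation. Several of them, PCDH10, PCDH17 and PCDH20 included, are also known for promoter methylation in carcinomas. The delta1 subgroup, here PCDH1, PCDH7 and PCDH9, carries a tail motif that binds protein phosphatase 1. The delta2 subgroup, here PCDH8, PCDH10, PCDH17, PCDH18 and PCDH19, holds members that recruit the actin-regulating WAVE complex. PCDH12 and PCDH20 were listed apart from both.

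The study asked which genes change in A2780s cells, a line of human epithelial ovarian adenocarcinoma, when GALNT3 is suppressed. GALNT3 encodes an enzyme that starts mucin-type O-glycosylation. Total RNA of 2 stable knockdown clones, sh-G1 and sh-G2, was compared with that of 1 mock-transfected clone, ctrl, on 4 Agilent arrays of 2 colours. The knockdown clones carry 1 and the same short hairpin against GALNT3 in the plasmid pSilencer 4.1 puro, ctrl carries the empty plasmid, and all of them were selected with puromycin. The labels write the cell line of ctrl in 2 ways, A2780s and A27803, and all arrays were taken to hold the 1 ctrl clone. In replicate 1 of each knockdown clone its RNA carried Cy5, and in replicate 2 the dyes were exchanged. Each group is 1 clone, so the knockdown and differences between clones of the line cannot be told apart. Neither can a change of RNA per cell and a change in the share of cells that express a gene.

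Each array gave 43376 spots, with a median intensity of 451.5 to 802.5 in Cy3 and of 463.25 to 558 in Cy5. The scanner software called 88.1% to 97.0% of the spots well above background for the knockdown clone and 95.9% to 97.6% for ctrl. All 17 protocadherin probes passed the filter, under which at least 1 channel had to be well above background on every array, as did 39152 of 40905 probes in all. Over all probes Pearson's r between a clone's dye-swapped arrays was 0.32 (sh-G1) and 0.19 (sh-G2), while it was 0.61 and 0.73 between arrays of different clones that had the dyes the same way round. Probes are not independent replicates, so these values only describe the arrays. The probe of GALNT3 had log2 ratios of -0.09, 0.08, 0.12 and -0.14, at the dim end of the array, and 2 of 4 arrays had its knockdown signal well above background, so the array did not check the labels. Of 9 markers of ovarian epithelial cancer cells, KRT18 and KRT8 were lower in both knockdown clones, with mean log2 ratios of -2.32 and -1.03 (limma adjusted p = 0.0365 and 0.0316). The other probe of KRT8 had -0.44 (limma adjusted p = 0.1507), and the other probes of KRT18 had -2.50 and -1.96. The summed signal of those 9 markers lay between 6375 and 10148 in the knockdown clones and between 15939 and 18705 in ctrl. KRT18 gave most of this difference, with 1147 to 2776 in the knockdown clones and 8220 to 10476 in ctrl. EPCAM had a mean log2 ratio of -0.33, and KRT7, KRT19, PAX8, WT1, MUC16 and CDH1 lay between -0.05 and 0.04. Of 4 fibroblast markers, 3 were measured, and their summed signal was 1356 to 2143 in sh-G1, 7571 to 9098 in sh-G2 and 24868 to 37982 in ctrl. DCN and LUM gave most of this difference, with log2 ratios of -4.24 and -4.58 in sh-G1 and of -2.09 and -2.04 in sh-G2. These genes were named after their values were seen, and their part in the protocadherin ratios was not tested. The 4 leukocyte, 4 endothelial cell and 4 neuron markers had mean log2 ratios between -0.13 and 0.05. No marker was at 0 on these arrays, and the leukocyte and endothelial cell markers were also called well above background, so that call does not show expression of a gene.

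On the chromosomes, PCDH8, PCDH17, PCDH20 and PCDH9 lie on 13, PCDH7, PCDH10 and PCDH18 on 4, PCDH1 and PCDH12 on 5, and PCDH19 on X. For 8 of the 10 genes RefSeq (GRCh38.p14) gave the bases upstream of the transcript start. The 250 bases before the start are shown 5′ to 3′ on the gene's strand for PCDH17 and PCDH7, which were higher in both knockdown clones, PCDH9, which was lower in both, and PCDH19, which was lower mainly in sh-G2. Capitals mark the letters of the CCAAT box, CCAAT or, on the other strand, ATTGG, a short motif bound by the factor NF-Y in many promoters. The windows are chr13:57631494-57631743 on the + strand for PCDH17, chr4:30720119-30720368 on the + strand for PCDH7, chr13:67230337-67230586 on the - strand for PCDH9 and chrX:100410274-100410523 on the - strand for PCDH19.
PCDH17: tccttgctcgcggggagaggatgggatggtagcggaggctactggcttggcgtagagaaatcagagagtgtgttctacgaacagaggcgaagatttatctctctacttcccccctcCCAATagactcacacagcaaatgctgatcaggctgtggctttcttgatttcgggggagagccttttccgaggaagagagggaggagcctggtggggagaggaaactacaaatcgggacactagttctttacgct
PCDH7: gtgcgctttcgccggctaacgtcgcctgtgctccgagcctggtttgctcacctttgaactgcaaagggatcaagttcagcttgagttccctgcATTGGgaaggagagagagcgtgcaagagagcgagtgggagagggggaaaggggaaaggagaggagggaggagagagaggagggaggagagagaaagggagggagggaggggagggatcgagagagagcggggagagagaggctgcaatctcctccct
PCDH9: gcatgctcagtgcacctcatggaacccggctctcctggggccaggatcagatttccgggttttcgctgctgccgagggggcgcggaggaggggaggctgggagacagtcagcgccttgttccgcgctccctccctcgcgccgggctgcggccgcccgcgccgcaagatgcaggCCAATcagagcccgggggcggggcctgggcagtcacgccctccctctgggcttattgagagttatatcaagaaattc
PCDH19: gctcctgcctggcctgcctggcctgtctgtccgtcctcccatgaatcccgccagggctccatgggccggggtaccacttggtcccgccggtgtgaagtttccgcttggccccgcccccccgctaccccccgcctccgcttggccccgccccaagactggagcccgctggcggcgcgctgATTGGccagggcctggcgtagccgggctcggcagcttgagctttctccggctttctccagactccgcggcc

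The letters of the CCAAT box stood 129 bases before the start of PCDH17, 152 before that of PCDH7, 72 before that of PCDH9 and 66 before that of PCDH19. Counted on both strands, they were in the windows of 7 of the 8 genes and in 32.0% of 35116 promoter windows of the same length. The letters GGGCGG of the GC box were in 3 of 8 windows, against 42.6% of all windows, and TATAAA was in 1 of 8, that of PCDH8, against 10.7%. Neither CACGTG (6.3% of all windows) nor TGACGTCA (1.6%) was in any of the 8. The windows of PCDH9 and PCDH19 held 20 and 21 CpG dinucleotides, those of PCDH17 and PCDH7 10 each, and those of PCDH8, PCDH18, PCDH1 and PCDH12 14, 8, 6 and 5, beside a median of 11 over all windows. PCDH18, whose probe was lower in sh-G2, thus had fewer than PCDH17 and PCDH7. These matches describe letters only and say nothing of binding or methylation in these cells.

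Across the 10 genes, the ratios spread widely around those of the array as a whole. The mean log2 ratio of a probe over both clones ran from -2.86 to 1.83, with a median of 0.48 over the 17 probes, while the median of all probes was -0.0037, with -0.27 at the 5th and 0.21 at the 95th percentile. Regardless of size, 9 probes were higher and 3 lower on all 4 arrays, beside 6.21% and 9.04% of all probes kept, and 5 changed sign between arrays. The study asked for 1.5-fold or more in both duplicate arrays of a comparison. Here that fold had to be reached the same way on all 4 arrays, and 4 of 17 probes were higher, beside 0.23% of all probes kept. These were both probes of PCDH17, the probe of PCDH20 and 1 of 4 probes of PCDH7. At the same threshold 2 of 17 were lower, both of PCDH9, beside 0.919% of all probes. Because these ratios chose the group, nothing is read from these shares. By limma's test of the mean of the clones, which is not quoted for the 10 genes, 0.138% of all probes passed an adjusted p of 0.05 as higher and 0.7% as lower. Over both arrays of sh-G1 the same threshold took in 4 higher and 2 lower probes (0.442% and 1.24% of all probes), and over those of sh-G2 7 higher and 3 lower (0.552% and 1.42%). The probe with the smallest margin inside was the dimmer one of PCDH17, whose lowest array stood at 0.63. Just outside were a PCDH10 probe, whose lowest array stood at 0.48, and the PCDH7 probes A_24_P914638, at 0.42, and A_23_P212888, at 0.40. The study, with its own ratios, lists PCDH10 as upregulated, beside PCDH7, PCDH17 and PCDH20. With the ratio of the scanner software 6 of 17 probes were higher and 2 lower on all 4 arrays. The share of all probes under that ratio is not given.

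**Figure D1:**
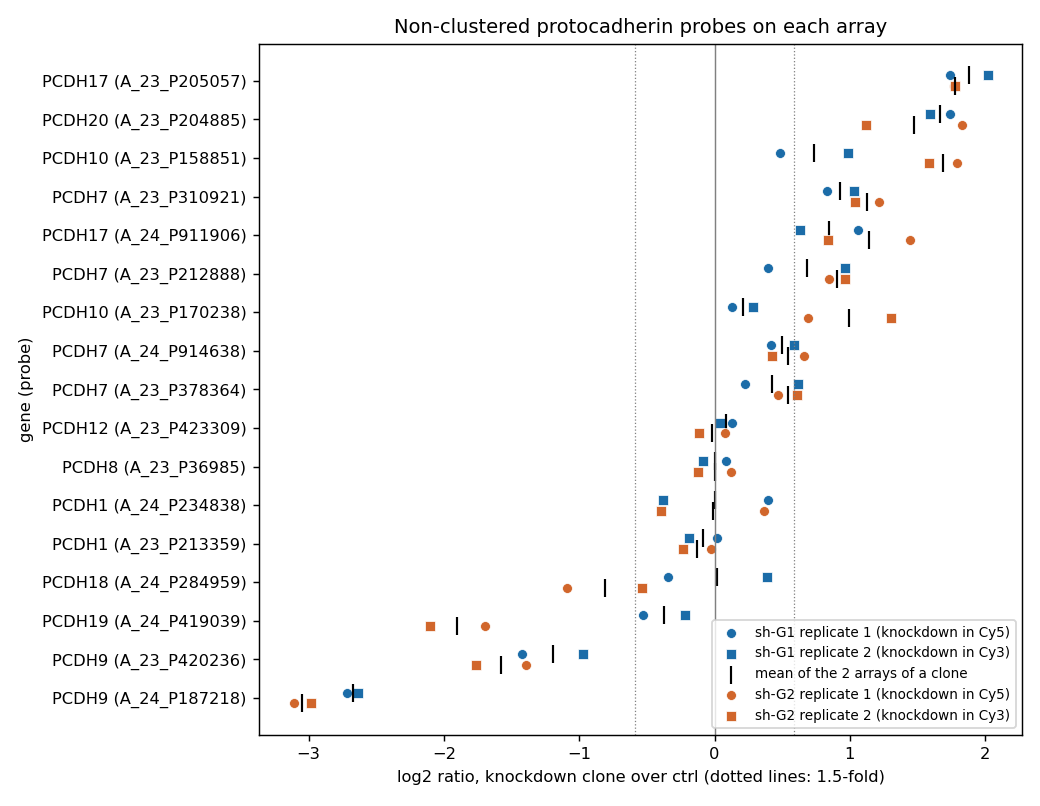
Log2 ratio of knockdown over ctrl (x axis) for each of the 17 non-clustered protocadherin probes (y axis) on the 4 arrays. Circles are arrays with the knockdown RNA in Cy5, squares those with it in Cy3, colour gives the clone, black ticks are the means of the 2 arrays of a clone, and dotted lines mark 1.5-fold. PCDH17 and PCDH20 lie above 1.5-fold and PCDH9 below it on every array, while PCDH10 and PCDH19 are spread by clone.

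PCDH17 and PCDH20, both known as genes silenced in tumours, were higher in both knockdown clones, by 3.55-fold and 2.97-fold with their brightest probes. The brighter probe of PCDH17, a delta2 protocadherin of the brain that acts in axon extension and synapse assembly, is A_23_P205057. Its signal (after background correction and normalisation, in arbitrary units) was 2181 and 2041 for sh-G1 and 2501 and 2480 for sh-G2. On the same arrays ctrl gave 652, 503, 732 and 724, so that every knockdown signal lay well above every ctrl signal. The log2 ratios were 1.74 and 2.02 in sh-G1 and 1.77 and 1.78 in sh-G2, with a mean of 1.83 ± 0.08 (SD, n = 2 clones), or 3.55-fold. The clones overlapped. The dimmer probe of PCDH17, A_24_P911906, gave 1.06 and 0.63 in sh-G1 and 1.45 and 0.84 in sh-G2, with a mean of 0.99 ± 0.21 (SD, n = 2 clones), or 1.99-fold. Only 12.6% of the probes kept were dimmer, and its mean rose to 1.93 with the ratio of the scanner software, beside 1.97 for the brighter probe.

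PCDH20 had the single probe A_23_P204885. The knockdown signal was 713 and 582 in sh-G1 and 658 and 609 in sh-G2, against 214, 193, 185 and 281 in ctrl on the same arrays. The log2 ratio was 1.74 and 1.59 in sh-G1 and 1.83 and 1.12 in sh-G2, with a mean of 1.57 ± 0.13 (SD, n = 2 clones), or 2.97-fold. The array of sh-G2 with the knockdown RNA in Cy3 stood lowest, and the arrays of sh-G1 fell within the range of those of sh-G2. The mean of this probe rose to 1.83 with an offset of 0 in the background correction and to 1.94 with the software ratio.

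PCDH7, a delta1 member known to bind the phosphatase inhibitor SET and protein phosphatase 1, was higher on all 4 arrays with each of its 4 probes, by amounts that differed between probes. The brightest, A_23_P310921, had signals of 6432, 5320, 8821 and 7708 in the knockdown clones (sh-G1 first) and of 3619, 2608, 3802 and 3761 in ctrl. Its log2 ratio was 0.83 and 1.03 in sh-G1 and 1.21 and 1.04 in sh-G2, with a mean of 1.03 ± 0.14 (SD, n = 2 clones), or 2.04-fold. Both arrays of sh-G2 stood above those of sh-G1, replicate 2 only barely. The probe A_23_P212888, which belongs to another transcript of the gene, had 0.40, 0.97, 0.85 and 0.97, with a mean of 0.79 ± 0.16. The remaining pair, which shares a transcript, gave means of 0.48 ± 0.08 (A_23_P378364) and 0.52 ± 0.03 (A_24_P914638), or 1.40-fold and 1.44-fold, and passed 1.5-fold on 2 arrays each.

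PCDH9, a delta1 protocadherin abundant in the nervous system, was the gene of the 10 with the lowest ratios, and the ctrl signal of its bright probe was several times that of either knockdown clone on every array. The bright probe A_24_P187218 gave signals of 20382, 14114, 23819 and 15276 in ctrl, and of 3101 and 2275 in sh-G1 and 2757 and 1930 in sh-G2 on the same arrays. Its log2 ratio was -2.72 and -2.63 in sh-G1 and -3.11 and -2.98 in sh-G2, with a mean of -2.86 ± 0.26 (SD, n = 2 clones), or 7.27-fold lower. Both arrays of sh-G2 stood below those of sh-G1. The probe A_23_P420236, which belongs to another transcript, had log2 ratios of -1.42, -0.97, -1.39 and -1.76, with a mean of -1.39 ± 0.27, or 2.62-fold lower. On this probe the knockdown signals of 103, 101, 126 and 87 were not far above the 50 that the offset adds, and they were well above background on 3 of 4 arrays. With the ratio of the scanner software its mean was -2.42, beside -2.87 for the bright probe.

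**Figure D2:**
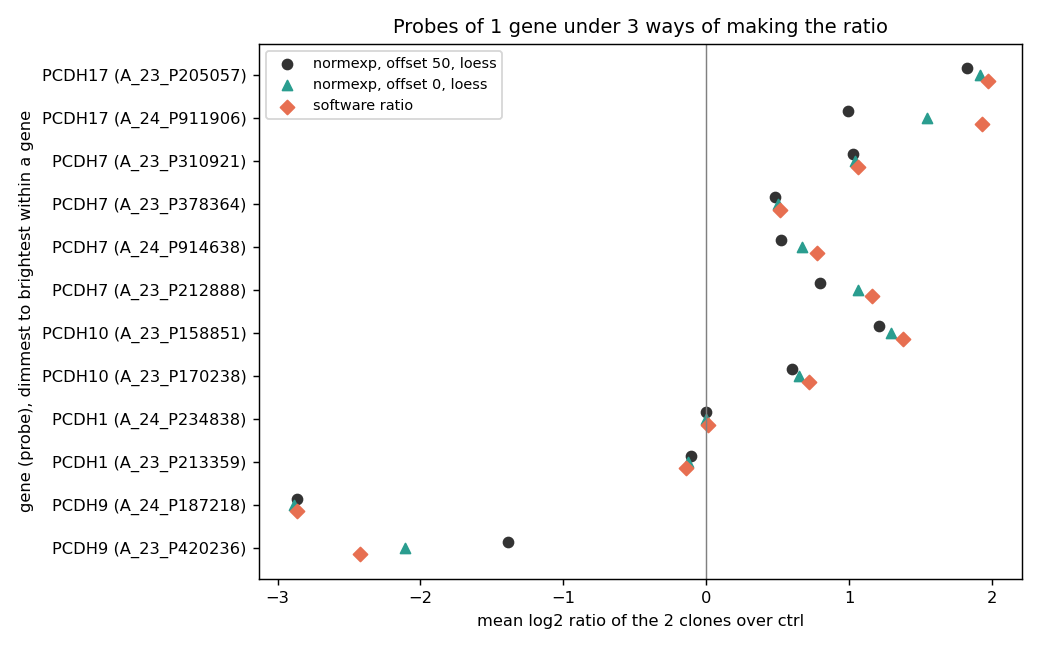
Mean log2 ratio of both clones over ctrl (x axis) for each probe of the 5 genes with several probes (y axis), from 3 ways of making the ratio. Circles are the ratios used throughout (normexp background correction with an offset of 50, then loess), triangles an offset of 0 and diamonds the ratio of the scanner software. The gap between the PCDH17 probes narrows from 0.83 to 0.04 and that between the PCDH9 probes from 1.47 to 0.44 with the software ratio, while the gap between the PCDH10 probes goes from 0.61 to 0.66.

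How far probes of 1 gene stood apart depended on the ratio for PCDH17 and PCDH9 and less so for PCDH10 and PCDH7. The gap in mean log2 ratio between the PCDH17 probes was 0.83, 0.37 with an offset of 0 and 0.04 with the software ratio. Between the PCDH9 probes it was 1.47, 0.78 and 0.44. Between the PCDH10 probes it was 0.61, 0.64 and 0.66, and over the 4 PCDH7 probes 0.55, 0.56 and 0.64. The order of the PCDH7 probes did change with the ratio. A_23_P212888 went from 0.79 to 1.06 and 1.16, above the brightest probe, which went from 1.03 to 1.04 and 1.06. A_24_P914638 went from 0.52 to 0.67 and 0.77. In the plot of the probes under the 3 ratios, the dim probes of PCDH17 and PCDH9 moved furthest, while the brighter PCDH17 probe went from 1.83 to 1.97 with the software ratio and the bright PCDH9 probe from -2.86 to -2.87.

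PCDH10, a delta2 protocadherin that recruits the WAVE complex and is often methylated in carcinomas, was higher on every array with both probes, and more so in sh-G2. For A_23_P158851 the knockdown signals were 840 and 752 in sh-G1 and 2296 and 1674 in sh-G2, against 601, 379, 661 and 559 in ctrl. The log2 ratio was 0.48 and 0.99 in sh-G1 and 1.80 and 1.58 in sh-G2, with clone means of 0.74 and 1.69. A_23_P170238, of another transcript, gave 0.13 and 0.28 in sh-G1 and 0.69 and 1.31 in sh-G2, with clone means of 0.21 and 1.00. On both probes each array of sh-G2 stood above each array of sh-G1.

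PCDH19, an X-linked delta2 gene known from a form of epilepsy in girls, was lower on all 4 arrays, slightly in sh-G1 and strongly in sh-G2. Its probe A_24_P419039 gave signals of 1347 and 1220 in sh-G1 and 603 and 418 in sh-G2, against 1940, 1419, 1957 and 1799 in ctrl. The log2 ratio was -0.53 and -0.22 in sh-G1 and -1.70 and -2.11 in sh-G2, so the clones did not overlap, and the mean of -1.14 ± 1.08 (SD, n = 2 clones) stands for neither. PCDH18, a delta2 gene of chromosome 4 like PCDH10, had log2 ratios of -0.35 and 0.39 in sh-G1 and of -1.09 and -0.53 in sh-G2 on its probe A_24_P284959. It was lower on both arrays of sh-G2, while the sign in sh-G1 changed with the dye.

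The difference between the knockdown clones was not the contrast that chose the group, though it comes from the same arrays. The ctrl clone cancels in it, and it was tested with limma over all probes, with a term for the dye. Each clone entered this test with its 2 dye-swapped arrays. The standard errors, intervals and p-values thus measure spread between arrays, not between clones. The difference in log2 ratio of PCDH19, sh-G1 minus sh-G2, was 1.53 (standard error 0.20, 95% interval 1.02 to 2.04), or 2.89-fold, and missed the threshold with limma's adjusted p = 0.1295. PCDH18 differed by 0.83 (95% interval 0.54 to 1.12, limma adjusted p = 0.1360). The PCDH10 probes differed the other way, by -0.95 (-1.45 to -0.45, limma adjusted p = 0.2671) and -0.79 (-1.16 to -0.42, limma adjusted p = 0.2221). None of the 17 probes passed the adjusted threshold, which 0.0843% of all probes passed as higher in sh-G1 and 0.0383% as higher in sh-G2. At an unadjusted p under 0.05 6 of 17 passed, beside 7.45% of all probes, and on 6 of 17 the arrays of the clones did not overlap, beside 17.9%. The size of the difference had a median of 0.20 over the 17 probes and of 0.088 over all probes, 95% of which lay under 0.42. Because the group was chosen for its ratios over ctrl on these same arrays, nothing is read from these shares and medians.

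The call for PCDH19 was not the same under every alternative. With all arrays and no dye term limma's adjusted p was 0.5962. Without sh-G2 replicate 1 the difference was 1.73 with limma's adjusted p = 0.0001412, and without sh-G2 replicate 2 it was 1.33 with 0.01433. Over all alternatives limma's adjusted p for PCDH19 ran up to 0.8843, which was reached without sh-G1 replicate 2, and the direction was the same in each. In the fits without an array the dye term was dropped too, so that the parts of both changes cannot be told apart, and the lone array of a clone was assumed to vary like the others.

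For the members with a probe past the threshold on all 4 arrays, the difference between the clones is given with its interval. These intervals, too, measure spread between arrays only. The brighter PCDH17 probe differed between the clones by 0.11 (95% interval -0.23 to 0.44, limma adjusted p = 0.9431). PCDH20 differed by 0.19 (-0.21 to 0.59, limma adjusted p = 0.8927), and the brightest PCDH7 probe by -0.20 (-0.60 to 0.21, limma adjusted p = 0.8887). The bright PCDH9 probe differed by 0.37 (0.03 to 0.72, limma adjusted p = 0.6230), with sh-G2 the lower. The dimmer PCDH17 probe went the other way from the brighter one, with -0.30 (-0.55 to -0.04, limma adjusted p = 0.5742).

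**Figure D3:**
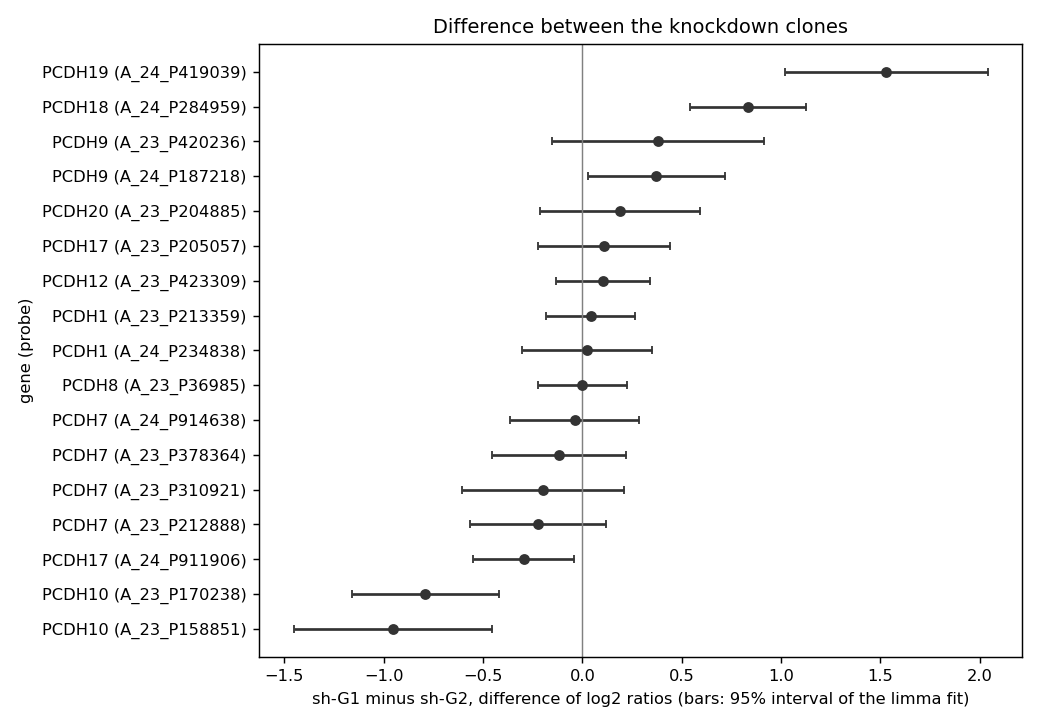
Difference of log2 ratio between the knockdown clones, sh-G1 minus sh-G2 (x axis), for each of the 17 probes (y axis). Points are the estimates of the limma fit and bars their 95% intervals, from 4 arrays, which measure spread between arrays and not between clones. PCDH19 (1.53) and PCDH18 (0.83) stand to the right of 0 and both PCDH10 probes (-0.95 and -0.79) to the left, and no probe had an adjusted p under 0.05.

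**Figure D4:**
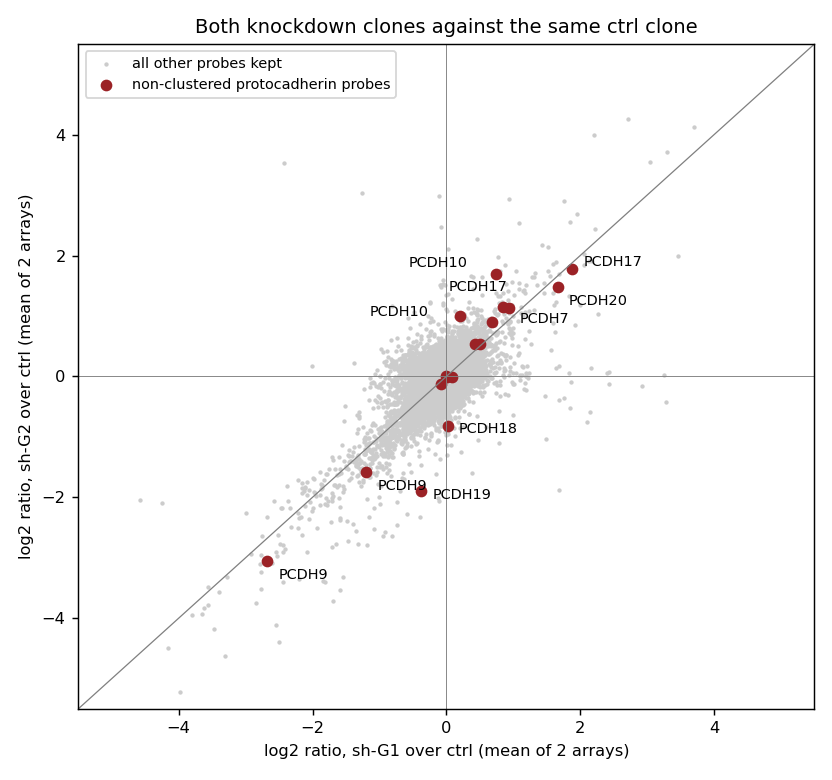
Mean log2 ratio over ctrl of the 2 arrays of sh-G1 (x axis) and of sh-G2 (y axis), for the 17 non-clustered protocadherin probes (dark red) and all other probes kept (grey), with the line of equal ratios. Both axes share the ctrl clone. The PCDH17 and PCDH20 probes lie near the line at 0.85 to 1.88 in sh-G1, PCDH9 lies near it at -1.20 and -2.67, and PCDH10, PCDH18 and PCDH19 lie off it.

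The remaining 3 genes had mean ratios near 1. PCDH1, a delta1 protocadherin of airway epithelium, gave 0.02 and -0.19 in sh-G1 and -0.02 and -0.24 in sh-G2 on A_23_P213359, with a mean of -0.11 ± 0.03 (SD, n = 2 clones). Its other probe, A_24_P234838, gave 0.40 and -0.38 in sh-G1 and 0.37 and -0.39 in sh-G2. The ratio was positive wherever the knockdown RNA carried Cy5 and negative wherever it carried Cy3, so that the mean was -0.0037. PCDH8, whose rodent counterpart is induced by synaptic activity, gave 0.09, -0.09, 0.12 and -0.12, with the same order by dye and a mean of 0.0005. PCDH12, a protocadherin of endothelial cells, gave 0.13, 0.04, 0.08 and -0.11, with a mean of 0.03 ± 0.07 (SD, n = 2 clones), and 3 of 4 arrays had its knockdown signal well above background. Signals over both channels were 278 to 350 for PCDH8, 116 to 171 for PCDH12 and 296 to 408 for A_23_P213359, and 2000 to 3207 for A_24_P234838. The endothelial cell marker VWF gave 275 to 390 on its brightest probe and 137 to 166 on its other probe. TEK gave 163 to 298, CDH5 194 to 249 and PECAM1, which lay below PCDH8 and PCDH12, 81 to 94. The ratios of PCDH8 and PCDH12 thus do not show that these genes are expressed and unchanged.

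The gap between the dye-swapped arrays of a clone holds dye bias, which their mean cancels, beside the spread between the arrays. The larger gap of each probe had a median of 0.41 over the 17 probes (0.13 to 0.78). Over all probes the median was 0.34, with 0.94 at the 95th percentile. The larger gap was above the 1.5-fold threshold in 5 of 17 probes, namely A_24_P234838 of PCDH1 (0.78), PCDH18 (0.73), PCDH20 (0.72), A_23_P170238 of PCDH10 (0.62) and the dimmer PCDH17 probe (0.61). The share of all probes above it is not given, so nothing is read from this count. The bright PCDH9 probe had small gaps, 0.08 (sh-G1) and 0.13 (sh-G2), and those of the brighter PCDH17 probe were 0.28 and 0.0034.

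Chromosome 13 carries 4 of the 10 genes, in the RefSeq order PCDH8, PCDH17, PCDH20 and PCDH9, with few measured genes between them. PCDH8 had a mean log2 ratio of 0.0005, PCDH17 of 1.83, PCDH20 of 1.57 and PCDH9 of -2.86 by the brightest probe of each. The 4 other measured genes of the stretch were OLFM4 (0.05) between PCDH8 and PCDH17, DIAPH3 (0.07) and TDRD3 (0.10) between PCDH17 and PCDH20, and OR7E156P (-0.13) between PCDH20 and PCDH9. None of the 4 passed 1.5-fold on all 4 arrays by its brightest probe. The nearest measured neighbours of all members came to 16 genes other than members. Over all genes 0.391% were at least 1.5-fold higher and 1.45% lower on all 4 arrays with any probe. By their brightest probe alone, a narrower measure than that of these shares, 2 of the 16 neighbours passed 1.5-fold on all 4 arrays. They were ARAP2 next to PCDH7, with a mean of 0.75, and TNMD next to PCDH19, with a mean of -1.19.

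**Figure D5:**
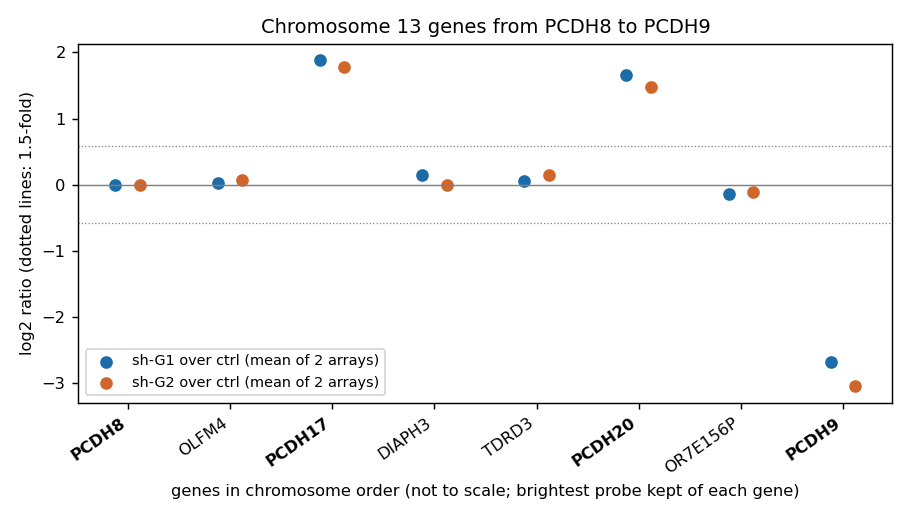
Log2 ratio over ctrl (y axis, mean of the 2 arrays of a clone, dotted lines at 1.5-fold) of the measured genes from PCDH8 to PCDH9 on chromosome 13, in chromosome order and not to scale (x axis), with 1 point for each clone and protocadherins in bold. PCDH17 and PCDH20 stand at 1.47 to 1.88 and PCDH9 at -2.67 and -3.05, and the other 5 genes lie between -0.14 and 0.14.

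The wider cadherin superfamily and the partners of protocadherins had median ratios close to that of all genes measured, -0.0039. Of 53 clustered protocadherins 37 were measured, with mean log2 ratios between -0.18 and 0.35 and a median of -0.0153 by the brightest probe of each. None passed limma's adjusted p of 0.05 or the 1.5-fold threshold on all 4 arrays, beside 0.184% of genes higher and 0.906% lower by limma over the 16882 genes measured. At an unadjusted p under 0.05 by limma, 1 of the 37 was higher and 1 lower, beside 6.24% and 9.09% of all genes. Of 21 classical and related cadherins 0 passed limma's test, with 1 higher and 2 lower at an unadjusted p under 0.05 (6.24% and 9.09% of all genes), and 1 was lower by at least 1.5-fold on all 4 arrays, beside 1.45% of all genes with any probe. That was CDH2, the N-cadherin of mesenchymal and neural cells, with -1.16 and -0.86 in sh-G1, against -2.15 and -1.84 in the other clone (limma adjusted p = 0.1804). The 9 catenins, which tie classical cadherins to the cytoskeleton, lay between -0.05 and 0.24. The 10 measured genes of the WAVE complex lay between -0.20 and 0.26. Those listed as PCDH7 partners, 5 genes whose binding was not checked, lay between -0.67 and 0.10. The lowest of the partners was SET, named after its values were seen, whose other probe was higher on all 4 arrays, with a mean of 0.19. By limma 0 genes of the catenin, WAVE and partner lists passed, with 1 catenin higher, 1 WAVE gene lower and 1 partner lower at an unadjusted p under 0.05.

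The genes whose 4 ratios were most like those of a protocadherin were found by the Euclidean distance of the log2 ratios over the 4 arrays, for the members past the threshold. For PCDH17 they included LRATD1 (distance 0.46) and PIK3CA (0.54). For PCDH20 they were HOTAIR (0.40), RGS2 (0.46) and GASK1B (0.49). PCDH7 was nearest to ZFHX4-AS1 (0.19), BCAT1 (0.19) and MOK (0.20), and PCDH9 to ADAP2 (0.22), CT83 (0.25) and NR0B1 (0.29). All of these distances rest on 4 arrays that share the ctrl clone.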

How the data were processed

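Each of the 4 arrays compared RNA of 1 knockdown clone with RNA of the ctrl clone. The authors scanned them with Agilent's scanner and read them with its Feature Extraction software (version 10.5.1.1 in the file headers, 8.5.1.1 in the submitters' processing notes). They deposited, for each spot, the median intensity and the median local background intensity of both channels, and the software's own log10 ratio (Cy5 over Cy3). The deposited series table equals this log10 ratio on 3 arrays and its error on sh-G1 replicate 2, and was not used. The deposited flags for spots above background and for outliers were used as filters. The software's p-value of each spot, its error of the log ratio and other scores as deposited were not used in a test.

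From the median intensities, background was corrected with normexp (offset 50) and log2 ratios were made with loess in limma 3.58.1 (R 4.3.3), turned to knockdown over ctrl, and averaged over spots of a probe. Median rather than mean spot intensities were used because the tables analysed hold the former. Control spots and outlier spots had no weight. The dye-swapped arrays of a clone count as 1 replicate (n = 2 clones), since the sources used here do not state whether they hold separate extracts, and p-values measure only the spread between these samples, which may be technical. The mean of the clones was tested against 0 with lmFit and eBayes with trend, which leaves out the spread of ctrl, and the difference between clones was tested on 4 arrays with a dye term (1 residual degree of freedom). P-values were adjusted by Benjamini-Hochberg over 39152 probes. Of 41000 probes, 25398 were named through RefSeq (GRCh38.p14) and 1, of PCDH7, through a table of the study. Lists use the brightest probe of a gene. All arrays lay on 1 slide, and their number limits the precision. Other tools were statmod 1.5.0, Python 3.11.15, numpy 2.4.6, pandas 2.3.3 and matplotlib 3.10.9. The fits were also run on simulated data drawn under their own assumptions. That run cannot show whether the assumptions hold for these arrays.

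The members, lists, markers and tests were chosen with earlier results of these data known. Named are all members, GALNT3, the 3 genes nearest in pattern to each member past the threshold, the neighbours of members, and genes of the protocadherin, cadherin, catenin and WAVE lists past the threshold on all 4 arrays, except 1 gene that is not reported here. Alternatives covered the background correction, the normalisation, the filters, each array left out, the fold threshold, the spread given to ctrl and the blocks.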

Additional observations from a re-analysis of the deposited data

How the results depend on the processing

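Leaving out 1 array in turn left between 4 and 6 protocadherin probes at least 1.5-fold higher and 2 lower in each case on the remaining arrays. With a filter on both channels the lower probes were 1 in place of 2, because that filter removed the dim PCDH9 probe. At 2-fold, 2 probes were higher and 1 lower. By the mean of the clones alone 7 were higher, and PCDH19 (-1.14) joined both PCDH9 probes as lower. No share of all probes is given beside these counts, and nothing is read from them. Over all probes, limma called 54 higher and 274 lower in the knockdown clones at an adjusted p under 0.05, and 48 between the clones. With the software ratio it called 120 and 413. The counts without 1 array lay between 56 and 339 higher and between 322 and 867 lower, where leaving out sh-G2 replicate 1 gave the most higher and sh-G1 replicate 2 the most lower probes, and without sh-G1 replicate 1 they were 170 and 460. With ctrl given the spread of a knockdown clone, limma's count was 0 higher and 0 lower. With the clone as a random block over 4 arrays it was 848 and 1721, at a consensus correlation of -0.66, and with the replicate block, which is the dye orientation, 316 and 935. Between the clones the count was 31 with both channels filtered, 5 without the replicate block, and 28 to 422 without 1 array, the most without sh-G2 replicate 2 and 269 without sh-G2 replicate 1. The cause was not tested. The mean ratios of PCDH8, PCDH12 and A_24_P234838 of PCDH1, all near 0, changed sign under an alternative, and those of the other probes did not. The clone differences of PCDH19, PCDH18, PCDH10, PCDH9, PCDH12 and the brightest PCDH7 probe kept their sign, and those of the other probes did not. Of the log2 ratios of the 17 probes under these alternatives 146 moved by less than the SD between clones and 39 by more, and of their clone differences 200 kept their side of the threshold and 2, both of PCDH19, passed it.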
